A study of Mus musculus with 6 samples.

Results

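Junction and polarity genes hold an epithelial sheet together and give each cell a top and a bottom. The set described here holds 38 genes chosen by function: 15 of the tight junction, 8 of the adherens junction, 5 of the desmosome and 10 of the polarity complexes. Their probes were found by RefSeq accession and, where that failed, by gene symbol or older symbol. The brightest probe above background stood for each gene. Of the 38 genes, 31 were measured, among 11940 genes measured in all. They comprised 13 tight junction, 6 adherens junction, 4 desmosome and 8 polarity genes.

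RNA came from luminal epithelium of the mouse uterus at 3.5 days post coitum (dpc) and was measured on 6 arrays of 1 Illumina bead chip. The 3 Control arrays are named A, B and C, and the 3 arrays of the conditional knockout (CKO) are named D, E and F. CKO females were Alk3flox/flox Pgrcre/+: both copies of Alk3, also called Bmpr1a, had loxP sites around exon 2, and Cre was made from 1 copy of the progesterone receptor gene Pgr. All mice had a hybrid C57BL/6J and 129S5/SvEvBrd background, and the labels give the other group only as Control, with no alleles. Pgr is active in uterine stroma and muscle as well as in epithelium, so the deletion is not limited to the cells measured. The labels state neither the age of the females, nor the way the epithelium was separated, nor whether arrays came from different animals, so the p-values reflect only how far these samples spread, which may be technical. The letters are also positions on the chip, so an effect of position cannot be told apart from one of genotype.

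As background, tight junctions seal the space between epithelial cells near their apical side, with claudins setting which ions pass. Adherens junctions below them tie cells together through cadherin and catenins linked to actin, and desmosomes do so through cadherins linked to keratin filaments. The Par, Crumbs and Scribble complexes place these junctions and separate apical from basolateral membrane. In the days before implantation the luminal epithelium of rodents is known to remodel its junctions and to lose part of its apical polarity, as it becomes able to let the embryo attach.

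Values are normalised log2 signals, in which 1 unit is a 2-fold difference, and differences are CKO minus Control. Median raw signal ran from 79.7 to 87.6 and 16620 to 17536 probes were above background on each array; the mean correlation of an array with the rest was 0.936 for array E and between 0.953 and 0.970 for the others. Of the pan-epithelial markers, Krt8, Krt18, Krt19, Krt7 and Cdh1 were above background on all 6 arrays, and the only probe of Epcam was not well above background. The mean deviation of the measured markers from their own means was -0.52 on E and between -0.03 and 0.22 on the other arrays. Krt8, Krt19 and Cdh1 were lowest on E, Krt19 by the most (8.77 against 10.48 to 11.78 elsewhere), and Krt18 and Krt7 were not. Bmpr1a read 9.26, 9.35 and 8.97 on Control A, B and C and 8.86, 8.25 and 8.67 on CKO D, E and F. The difference was -0.60 (95% confidence interval -1.12 to -0.07; limma adjusted p = 0.976; exact permutation p = 0.1, the smallest possible with 3 against 3 arrays), and a probe outside the deleted exon would not check the deletion. Pgr differed by -0.43 (SE 0.56), with an exact permutation p of 0.6.

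No junction or polarity gene was higher or lower in CKO in limma's fit over all genes at an adjusted p under 0.05. The adjusted p of the 31 genes ran from 0.976 to 0.991, and 0 of them had an unadjusted p under 0.05, against 4.72% of all genes. Among all 11940 genes, 2 were higher (0.0168%) and 0 lower (0%) past the adjusted threshold. The differences of the 31 genes ran from -0.40 for Cldn1 to 0.47 for Cldn12, and 17 were above 0 and 14 below. Their median was 0.015, against -0.011 for all genes, and 0 of the 31 passed 1.5-fold in either direction, against 9.63% of all genes.

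**Figure D1:**
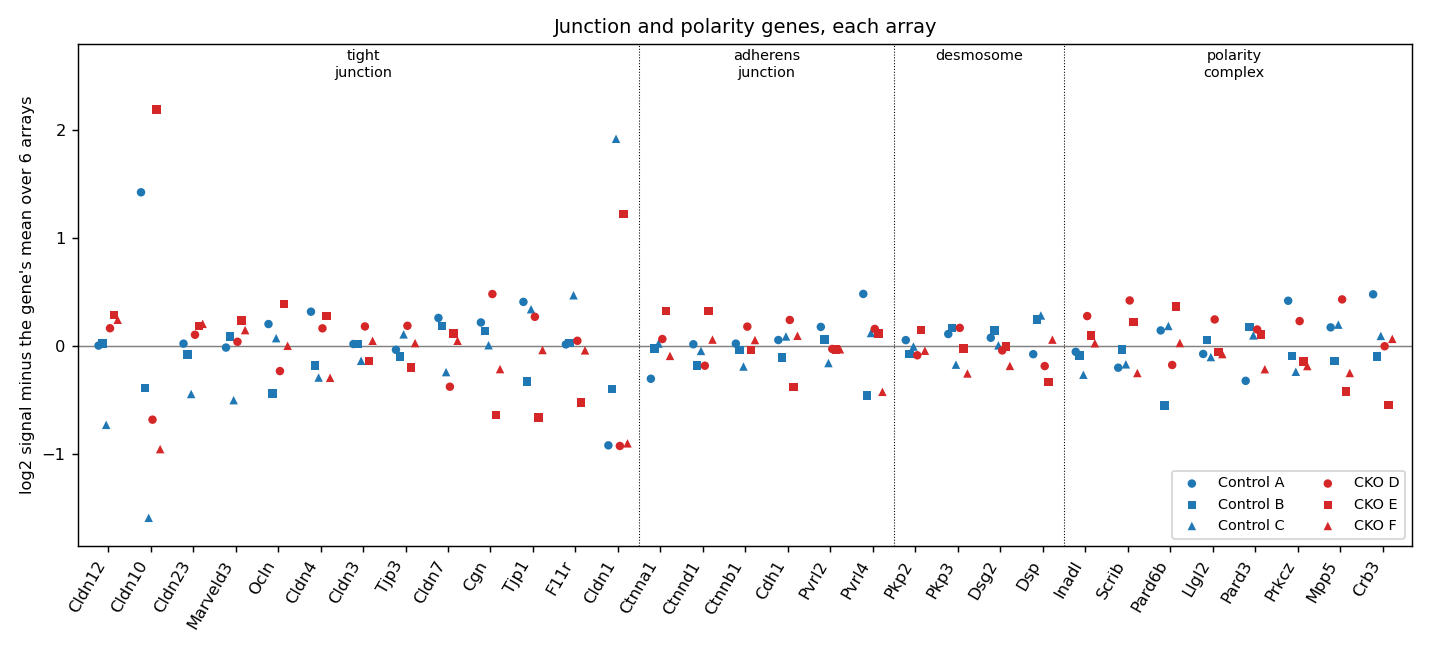
Normalised log2 signal on each array minus the gene's mean over the 6 arrays, for the 31 measured genes. Blue marks Control arrays A to C and red marks CKO arrays D to F, with genes ordered within each class by their difference. Cldn10 and Cldn1 spread over 3.78 and 2.85 log2 units, and the other 29 genes spread over at most 1.12.

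The 95% confidence interval of the difference lay within 2-fold in both directions for 27 of the 31 genes, and within 1.5-fold for 10. For the median gene it reached 0.50 log2 units, or 1.42-fold, to either side of the difference. The difference was smaller than the pooled SD of the groups for 20 of the 31 genes (64.5%), against 71.6% of all genes.

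**Figure D2:**
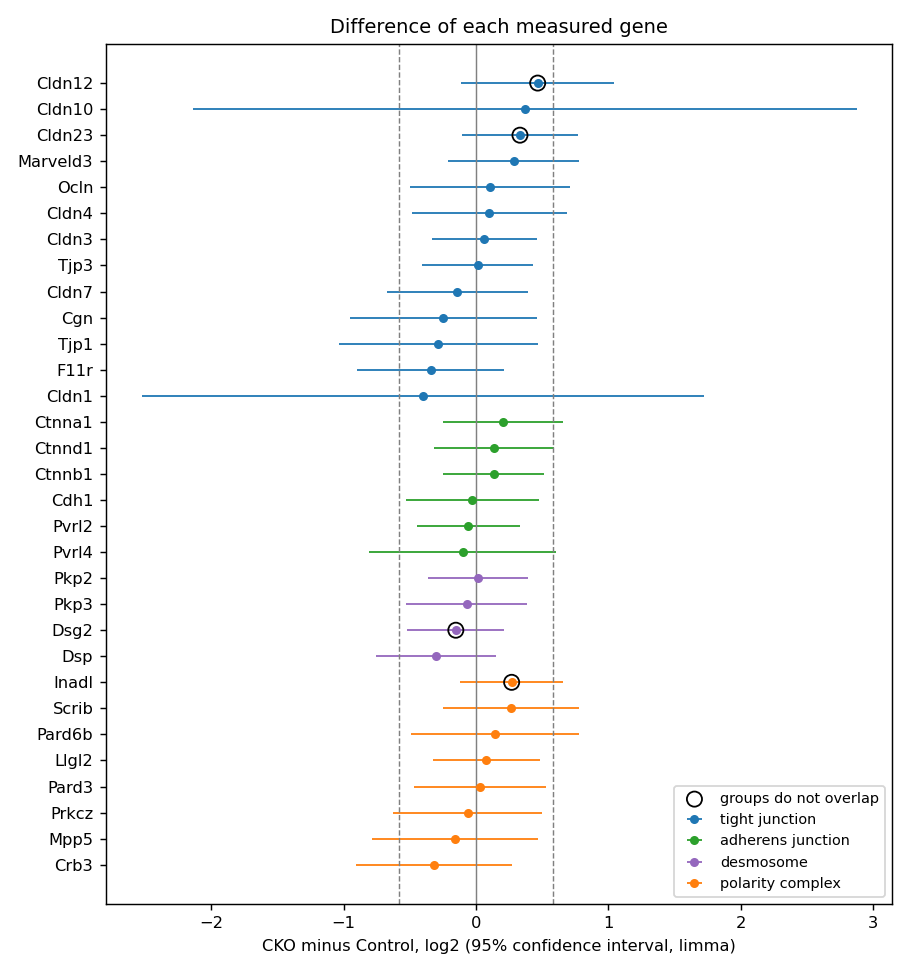
Difference CKO minus Control in log2 units for each measured gene, with limma's 95% confidence interval as a bar, from 3 arrays a group. Dashed lines mark 1.5-fold, and rings mark the 4 genes whose groups did not overlap: Cldn12, Cldn23, Inadl and Dsg2. Every interval crosses 0, and those of Cldn10 and Cldn1 are the widest.

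The groups did not overlap for 4 members. In Cldn12, Cldn23 and Inadl every CKO array lay above every Control array, which is 9.68% of the measured members against 5.64% of all genes. In Dsg2 every CKO array lay below, which is 3.23% of the members against 5.01% of all genes. In total 12.9% of the members and 10.6% of all genes were separated in this way.

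Cldn12 and Cldn23 encode claudins, the membrane proteins that form the strands of the tight junction. Cldn12 read 8.44, 8.46 and 7.71 on Control A, B and C and 8.60, 8.73 and 8.68 on CKO D, E and F. Control array C was the low one, and the CKO arrays lay close together, at 8.67 ± 0.06 (SD, n = 3) against 8.21 ± 0.43 (SD, n = 3). The difference was 0.47 (SE 0.24; limma adjusted p = 0.976), the largest among the measured members, and 0.22 without Control C. Cldn23 read 12.57, 12.47 and 12.11 on the Control arrays and 12.66, 12.74 and 12.76 on the CKO arrays. Control C was again the lowest, and the difference was 0.33 (SE 0.18; limma adjusted p = 0.976), or 0.19 without that array.

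Cldn3, Cldn4 and Cldn7, claudins common to many simple epithelia, had groups that overlapped. Cldn3, a sealing claudin, read 13.96, 13.96 and 13.81 on Control A, B and C and 14.13, 13.81 and 14.00 on CKO D, E and F, a difference of 0.06 (SE 0.17). Cldn4, which limits the passage of sodium, read 13.00, 12.50 and 12.39 on Control and 12.84, 12.96 and 12.38 on CKO, a difference of 0.10 (SE 0.25). Each group held both high and low arrays of Cldn4. Cldn7, found along the lateral membrane as well as in the tight junction, read 10.22, 10.14 and 9.71 on Control and 9.58, 10.07 and 10.004 on CKO, a difference of -0.14 (SE 0.22).

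Among the proteins that accompany the claudins, Ocln, which encodes occludin, read 8.36, 7.72 and 8.23 on Control A, B and C and 7.93, 8.55 and 8.16 on CKO D, E and F. Its lowest array was in Control and its highest in CKO, and the difference of 0.11 (SE 0.25) was smaller than the spread in either group. F11r, the junctional adhesion molecule JAM-A, read 9.78, 9.80 and 10.24 on Control and 9.82, 9.24 and 9.73 on CKO. Control C was high and CKO E was low, the remaining 4 arrays lay together, and the difference was -0.34 (SE 0.23; limma adjusted p = 0.976). Marveld3, related to occludin, differed by 0.28 on its brightest probe, for transcript variant 1, and by -0.69 on the probe for variant 2, so its direction depended on the probe.

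On the cytoplasmic side, Tjp1 encodes ZO-1, the scaffold that links claudins to actin. It read 7.94, 7.20 and 7.87 on Control A, B and C and 7.80, 6.87 and 7.49 on CKO D, E and F, a difference of -0.28 (SE 0.32). Array E was the lowest, the groups overlapped, and without array E the difference was -0.024. The related scaffold Tjp3 differed by 0.01, and Cgn, which encodes the scaffold protein cingulin, by -0.25.

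The adherens junction genes differed less among themselves, from -0.10 for Pvrl4 to 0.20 for Ctnna1, and none of the 6 measured separated the groups. Cdh1, the E-cadherin that holds neighbouring epithelial cells together, read 11.48, 11.31 and 11.51 on Control A, B and C and 11.66, 11.04 and 11.52 on CKO D, E and F. On 5 of the 6 arrays values lay between 11.31 and 11.66, and array E lay below them; the difference was -0.03 (95% confidence interval -0.53 to 0.48). A second, dimmer probe of Cdh1 gave a difference of 0.48.

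The catenins link the cadherin tail to actin. Ctnna1, the alpha-catenin that binds actin, read 12.64, 12.92 and 12.97 on Control and 13.01, 13.27 and 12.86 on CKO, a difference of 0.20 (SE 0.19). Ctnnb1, the beta-catenin that also acts in WNT signalling, read 12.16, 12.11 and 11.95 on Control and 12.32, 12.10 and 12.20 on CKO, a difference of 0.13 (SE 0.16). Its dimmer probes differed by 0.0042, 0.55 and -0.05. Ctnnd1, the p120-catenin that keeps cadherin at the membrane, read 9.19, 8.99 and 9.13 on Control and 8.99, 9.50 and 9.23 on CKO, a difference of 0.14 (SE 0.19). All 3 catenins had overlapping groups. The nectins Pvrl2 and Pvrl4, now named Nectin2 and Nectin4, differed by -0.06 and -0.10, and Pvrl4 was above background on 4 of the 6 arrays. Dimmer probes of Pvrl2 differed by 0.12 and 0.19.

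Of the 4 desmosome genes measured, 3 lay below 0, and their median difference was -0.11. Dsp, which encodes desmoplakin, the link from the desmosome to keratin filaments, read 8.49, 8.80 and 8.84 on Control A, B and C and 8.38, 8.23 and 8.62 on CKO D, E and F. CKO array F lay above Control array A, so the groups overlapped, and the difference was -0.30 (SE 0.19; limma adjusted p = 0.976). Dsg2, the desmosomal cadherin of simple epithelia, read 10.69, 10.75 and 10.62 on Control and 10.57, 10.60 and 10.43 on CKO, a difference of -0.15 (SE 0.15; limma adjusted p = 0.976). The groups were separate but close, at 10.69 ± 0.07 (SD, n = 3) and 10.53 ± 0.09 (SD, n = 3), and the 3 dimmer probes of Dsg2 differed by -0.10, 0.13 and 0.07. Pkp3, a plakophilin of the desmosomal plaque, read 8.61, 8.66 and 8.33 on Control and 8.67, 8.47 and 8.24 on CKO, a difference of -0.07. Its relative Pkp2 differed by 0.02, and dimmer probes of Pkp2 by 0.11, 0.06 and 0.91.

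Among the 8 polarity genes, 5 lay above 0 and 3 below, within as well as between complexes. With array weights, which rest mainly on Control B and CKO F, the split turned to 2 above and 6 below. Without array D it was 3 above and 5 below. In the Crumbs complex, which defines the apical membrane, Inadl (now Patj), a scaffold, read 9.29, 9.25 and 9.07 on Control A, B and C and 9.62, 9.44 and 9.37 on CKO D, E and F. The groups were separate, with a difference of 0.27 (SE 0.16; limma adjusted p = 0.976). Of its 3 other probes above background, 2 differed by 0.28 and 0.50 and the third by -0.01. Crb3, the membrane protein of that complex, read 7.36, 6.79 and 6.98 on Control and 6.88, 6.34 and 6.95 on CKO, with Control A high and CKO E low. Its difference was -0.32 (SE 0.25), and Mpp5, the adaptor between Crb3 and Inadl, differed by -0.16. The 3 members of the Crumbs complex thus had no common sign.

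In the Scribble complex, which marks the basolateral side, Scrib read 8.87, 9.04 and 8.90 on Control A, B and C and 9.49, 9.30 and 8.82 on CKO D, E and F. CKO D and E lay above every Control array and CKO F below them, and the difference was 0.27 (SE 0.22). A second probe of Scrib differed by -0.01. Llgl2, its basolateral partner, read 12.14, 12.27 and 12.11 on Control and 12.46, 12.15 and 12.14 on CKO, a difference of 0.08 (SE 0.17). In the Par complex, Prkcz, an atypical protein kinase C, read 9.80, 9.28 and 9.14 on Control and 9.61, 9.23 and 9.19 on CKO. Each group held 1 high array, A or D, and the difference was -0.06 (SE 0.23). Dimmer probes of Prkcz above background differed by 0.06 and 0.15. The scaffolds Pard6b and Pard3 differed by 0.15 and 0.03, and Pard3 was above background on 4 of the 6 arrays.

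The 7 members not measured were Cldn8, Marveld2, Jup, Pvrl1, Dsc2, Prkci and Dlg1. The probes of 6 of them were above background on none of the arrays, and Pvrl1, now Nectin1, was above background on 1. They include Jup, the plakoglobin shared by adherens junctions and desmosomes, Dsc2, the partner of Dsg2, and Prkci, the other atypical protein kinase C. A probe that is not well above background gives only an upper bound on the signal, and no fold is given for these genes.

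Across the 6 arrays, regardless of group, the members varied less than the typical gene. The median distance between the highest and the lowest array was 0.64 log2 units for the members and 0.81 for all genes, and it passed 2-fold for 6 of the 31 members (19.4%) against 36.8% of all genes. These are descriptions of the set, with no test. Array E held the highest or lowest value of 16 members (51.6%), close to its share of 53.6% among all genes, with 8 members highest and 8 lowest there.

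**Figure D3:**
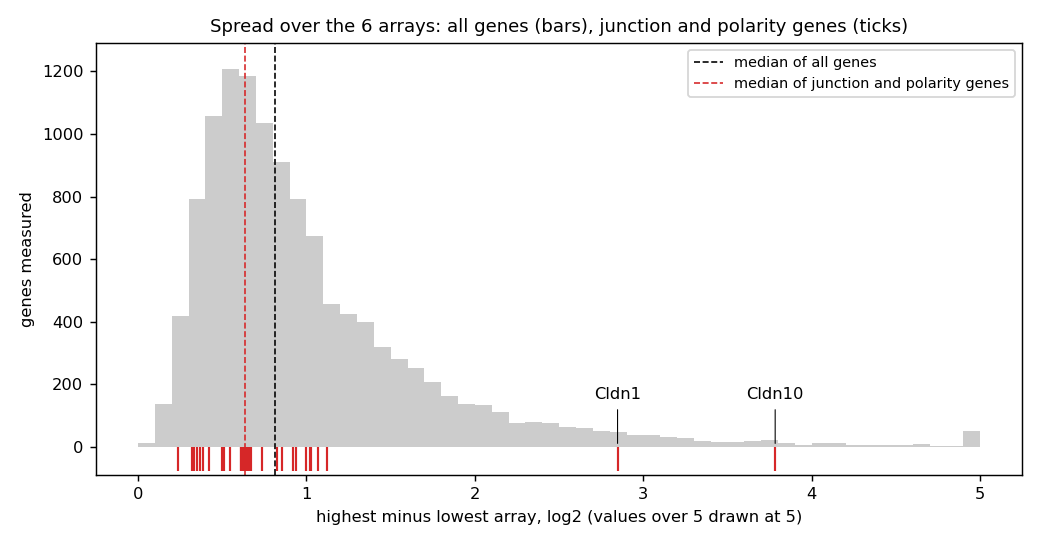
Distance between the highest and the lowest of the 6 arrays in log2 units, for the 11940 genes measured (grey bars, number of genes per 0.1 unit) and the 31 junction and polarity genes (red ticks). Dashed lines mark the medians, 0.64 for the members and 0.81 for all genes, and Cldn10 and Cldn1 lie far to the right of the other members.

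Cldn10 and Cldn1 stood apart from the other members by their spread and were singled out after their values were seen. Cldn10, a claudin known to form ion-selective pores, read 13.76, 11.94 and 10.74 on Control A, B and C and 11.65, 14.52 and 11.38 on CKO D, E and F. The highest array was 13.8-fold above the lowest, more than in 98.8% of all genes, and each group held 1 high array, A in Control and E in CKO. Control arrays spanned 3.02 log2 units and CKO arrays 3.15, against a difference between the groups of 0.37 (SE 1.05). The sign rested on single arrays: the difference was -0.63 without E, -0.33 without C and 1.18 without A.

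The spread of Cldn10 was seen by 3 probes. A second probe, for transcript variant 1, read 12.70, 10.22 and 9.22 on Control A, B and C and 10.40, 14.27 and 10.12 on CKO D, E and F. Another probe for variant 2 read 11.92, 9.31 and 8.20 on Control and 8.57, 13.78 and 9.08 on CKO. All 3 probes had their highest value on E and their next highest on A, and the remaining probe was above background on no array. The brightest probe spanned the least, 3.78 log2 units, against 5.04 for the variant 1 probe and 5.58 for the other variant 2 probe. RefSeq gives Cldn10 in GRCm38.p6 more than 1 start. The 250 bases before each of the 2 starts in the table used here are shown because both variants were high on A and E. The table does not tie a start to a variant.

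The 2 Cldn10 windows, both on the plus strand, and the window of Cldn1, on the minus strand, read as follows, 5′ to 3′.
Cldn10 start 1, chr14:118787621-118787870: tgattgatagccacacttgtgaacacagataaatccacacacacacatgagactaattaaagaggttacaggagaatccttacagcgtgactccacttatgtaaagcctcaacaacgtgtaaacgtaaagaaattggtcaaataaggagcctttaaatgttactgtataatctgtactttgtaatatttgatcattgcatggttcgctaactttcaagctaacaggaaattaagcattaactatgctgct
Cldn10 start 2, chr14:118854700-118854949: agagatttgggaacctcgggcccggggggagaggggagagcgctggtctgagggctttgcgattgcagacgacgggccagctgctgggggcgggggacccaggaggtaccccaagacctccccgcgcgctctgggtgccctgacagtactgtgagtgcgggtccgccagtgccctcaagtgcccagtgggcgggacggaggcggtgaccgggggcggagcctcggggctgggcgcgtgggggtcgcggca
Cldn1, chr16:26371840-26372089: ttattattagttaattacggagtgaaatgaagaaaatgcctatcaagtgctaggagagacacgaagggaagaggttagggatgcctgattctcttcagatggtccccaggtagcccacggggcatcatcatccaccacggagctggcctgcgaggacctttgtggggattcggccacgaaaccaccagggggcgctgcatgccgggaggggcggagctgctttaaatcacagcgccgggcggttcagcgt
They are in lower case throughout because no motif searched was found in them. The G and C content was 36.0% and 72.4% in the Cldn10 windows, so these starts lie in sequence of different composition, and 55.6% in the Cldn1 window. On either strand, 0 of the 3 windows held CACCTG, an E-box known to be bound by Snail and Zeb repressors, GGCGCC, a motif known to be bound by SMADs downstream of BMP receptors, or TATAAA, the TATA box. Among 32851 windows of the same length from 27025 genes, 17.2% held CACCTG, 9.6% GGCGCC and 12.4% TATAAA.

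Markers of uterine glands are given beside Cldn10 because 2 of them were high on the same arrays. Of the 7 gland markers, 5 were measured, and Foxa2 and Prss28 were not well above background. The summed log2 signal of these 5 ran from 34.6 to 41.7 in Control, highest on A, and from 36.4 to 44.4 in CKO, highest on E, with Spink1 and Prss29 spanning the most. Spink1, formerly Spink3, a protease inhibitor secreted by glands, read 12.08, 10.33 and 8.03 on Control A, B and C and 8.19, 11.41 and 8.01 on CKO D, E and F. Prss29, an implantation serine protease of glands, read 8.27, 5.23 and 4.53 on Control and 4.59, 10.53 and 4.69 on CKO. It was above background on only 2 Control arrays and 1 CKO array, so its lowest values are background. Spink1 and Prss29 were both highest on A within Control and on E within CKO, as Cldn10 was. They were chosen for that after their values were seen. None of the other 3 measured gland markers was highest on both A within Control and E within CKO. Aldh1a1, a retinaldehyde dehydrogenase, was lowest on A and E, at 4.93 and 4.74 against 5.74 to 7.31 elsewhere. It was above background on only 2 arrays of each group. Cxcl15, a chemokine of uterine glands, was highest on B within Control, at 9.15, and on F within CKO, at 7.70. Sox9, a transcription factor, followed Cldn10 in part, with its highest value on E and its lowest on C. It read 9.49, 9.71 and 7.47 on Control A, B and C and 10.43, 10.78 and 10.21 on CKO D, E and F. The part of gland RNA in the Cldn10 values was not tested, and more gland cells in a sample cannot be told apart from more Cldn10 RNA per cell.

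**Figure D4:**
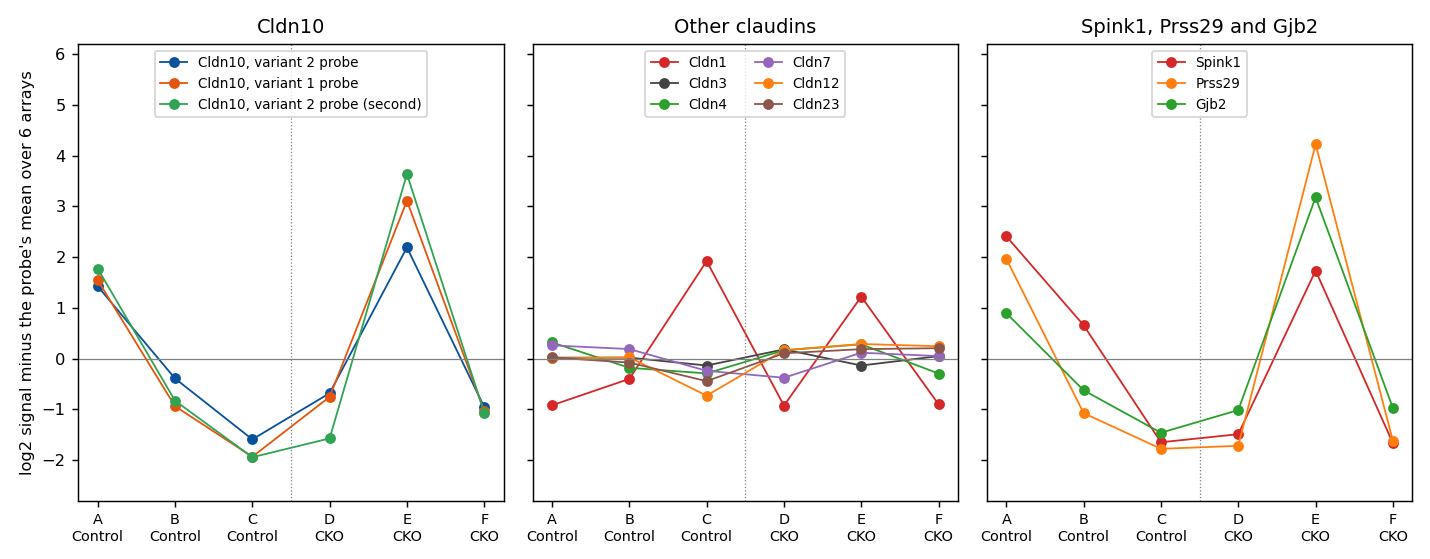
Log2 signal on each array minus the probe's own mean over the 6 arrays, for 3 probes of Cldn10 (left) and the other claudins measured among the members (middle). The right panel holds 2 of the 5 gland markers measured, Spink1 and Prss29, with the gap junction gene Gjb2. Arrays A to C are Control and D to F are CKO; lines join the values of a probe and carry no order. Cldn10, Spink1, Prss29 and Gjb2 are high on A and E, while Cldn1 is high on C and E.

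Cldn1, a claudin known as a barrier protein of many epithelia, had another pattern. It read 6.95, 7.47 and 9.79 on Control A, B and C and 6.95, 9.09 and 6.97 on CKO D, E and F. One array of each group, C and E, stood above the rest, with a highest value 7.19-fold above the lowest, more than in 96.7% of all genes. The difference was -0.40 (SE 0.89), and leaving out single arrays moved it from -1.12 to 0.46.

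RNA of other cell types differed between arrays. Of the 10 stroma markers, 8 were measured and 6 were higher in CKO; their mean deviation was between -0.42 and -0.12 on the Control arrays, 1.03 on D, 0.75 on E and -0.92 on F. Of the 6 endothelium markers, 5 were measured, and Pecam1 was not well above background. The mean deviation of these 5 was highest on E, at 1.04. Tek (8.23), Emcn (7.03) and Cdh5 (6.75) were high there, while Kdr (5.49) and Cldn5 (5.23) lay within their Control range. Pdgfra and Hoxa10 were the stroma markers not well above background. The stroma markers were not alike on E. There Dcn (10.73) and Lum (6.87) lay within their Control range, and Col1a2 (5.29) and Col3a1 (5.50) were little above theirs. The summed log2 signal of the stroma markers ran from 50.2 to 52.6 in Control and from 46.2 to 61.8 in CKO. The part of these cells in the junction gene values was not tested. Of all the markers, 0 passed limma's adjusted threshold.

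Other genes of these structures were taken from lists chosen by function. Of 24 other tight junction genes, 14 were measured, and 8 lay above 0 and 6 below (median 0.12; with the mean of the probes or array weights the median was -0.02 in both, and -0.05 without array D). None passed limma's adjusted threshold, and the same holds for every list described here. Magi1, a scaffold at the tight junction, read 7.48, 7.26 and 7.52 on Control A, B and C and 6.96, 6.31 and 6.50 on CKO D, E and F. Its groups were separate, with a difference of -0.83 (SE 0.22; limma adjusted p = 0.976), which stayed between -1.01 and -0.70 when single arrays were left out. Ildr1, a protein of tricellular contacts, differed by 0.20, also with separate groups.

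Of 17 other adherens junction genes, 9 were measured, 3 above 0 and 6 below (median -0.18, or 0.02 without a filter on dim probes and 0.0022 without array E). Cdh16, a cadherin best known from kidney, was above background on every Control array and on 0 of the 3 CKO arrays. It therefore passed the filter of 3 arrays through the Control arrays alone. Cdh16 read 5.22, 6.61 and 7.33 on Control A, B and C and 4.93, 4.63 and 4.81 on CKO D, E and F. Its measured means were 6.39 and 4.79, and the CKO mean was at least 2.53-fold lower, with a bound of 5.05 for CKO. That fold holds for the group means only, and Control A lay close to the bound. The difference was -1.60 (limma's confidence interval -2.81 to -0.39; limma adjusted p = 0.976). Cdh5, the cadherin of endothelium, differed by 0.69 (SE 0.45), or 0.20 without array E.

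Of 17 other desmosome and hemidesmosome genes, 9 were measured, 6 above 0 and 3 below (median 0.08, or -0.04 with array weights, -0.0040 without array C and -0.012 without array D). Pkp4, related to p120-catenin, differed by 0.39 (SE 0.30) and Dst, which ties keratin filaments to hemidesmosomes, by -0.30 (SE 0.21). Of 26 other polarity genes, 18 were measured, and 4 lay above 0 and 14 below, with a median of -0.06. Without array E, 7 lay above 0 and 11 below, with a median of -0.01. Pard6g, a Par complex scaffold, differed by -0.57 (SE 0.24; limma adjusted p = 0.976) with separate groups, and Strada, a partner of the polarity kinase Stk11, by -0.37 (SE 0.23).

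Gap junction genes, whose connexins form channels between cells, had 5 of 10 measured, all above 0, but 3 of the 5 lay below 0 with array weights, and 2 of the 4 measured without array E. Gja4, a connexin of blood vessels, differed by 0.41 (SE 0.35). Gjb2, named after its values were seen, read 10.25, 8.73 and 7.89 on Control A, B and C and 8.34, 12.53 and 8.38 on CKO D, E and F. It was high on A and E, as Cldn10 was. Its difference of 0.79 (SE 1.21) was -0.60 without array E.

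Transcription factors known to raise epithelial junction genes had 11 of 13 measured, 7 above 0 and 4 below (median 0.05, or -0.0027 with median scaling and -0.015 without array B). Esrp2, a splicing regulator of epithelial cells that is listed with them, differed by 0.60 (SE 0.28), and Ovol1 by 0.35 (SE 0.35). Repressors of Cdh1 and mesenchymal genes had 6 of 12 measured, all above 0 with a median of 0.27, but 3 of the 6 lay below 0 with array weights and 1 with the deposited values. Vim, the intermediate filament of mesenchymal cells and also 1 of the stroma markers, read 6.23, 6.15 and 6.61 on Control A, B and C and 7.88, 7.65 and 5.98 on CKO D, E and F. Vim was high on D and E, where the mean deviation of the stroma markers, Vim among them, was also high. It was lowest on F, and its difference was 0.84 (SE 0.50). Tcf3, a repressor of Cdh1, differed by 0.37 (SE 0.29).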

How the data were processed

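Per the file headers, the authors' deposited scanner tables hold 45281 probes, each with its mean intensity over beads (linear, neither background-subtracted nor normalised), a detection p-value and how many beads were read. A further deposited table holds processed intensity values, whose median was 6.4 on every array; what software made it was not given in the sources used here. Bead numbers of the members' probes ran from 24 to 68, with a standard error of 2.13% to 7.56% of the raw signal; precision is limited by the number of arrays.

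The neqc function of limma 3.58.1 (R 4.3.3) corrected raw intensities by normexp, inferring negative controls from the detection p-values, added 16, quantile-normalised the arrays and took log2. The added 16 shrinks the differences of dim genes. Probes with a detection p-value under 0.05 on at least 3 of 6 arrays were kept (17291 probes). Names came from RefSeq accessions for 29370 probes, symbols for 3686 and older symbols for 3267; 8940 kept the name in the file, and 18 were left out. The RefSeq table is of GRCm38.p6. The brightest probe stood for its gene. Where quantile normalisation gave a gene the same rank on several arrays, its values there are equal.

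CKO was compared with Control by lmFit and eBayes, two-sided, adjusted by Benjamini-Hochberg over 11940 genes, with a threshold of 0.05. "At least" folds set the bright group's mean against, for each array of the dim group, its lowest signal among probes above background or the probe's own signal, whichever was higher. Marker deviations are means, over a list's genes, of the signal minus the gene's mean over 6 arrays. Only the limma fit was tested on simulated data, without the background correction, the normalisation, the detection filter or the choice of probe. Alternatives were other background corrections, median scaling, the deposited values, other filters, the mean of a gene's probes, array weights and leaving out each array. The array weights were 4.06 for Control B and 2.95 for CKO F, against 0.34 to 0.78 for the others. That setting therefore rests mainly on B and F. Figures were drawn with matplotlib 3.10.9.

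The members, the gene lists and the tests were chosen with earlier results of these data known. Values on each array are given for members with separate groups, for the 3 members of each class with the smallest p and for fixed genes (Cdh1, Ctnnb1, Tjp1, Ocln, Cldn3, Cldn4, Cldn7, Dsp, Prkcz, Crb3 and Llgl2; Jup, also on that list, was not measured). From each other list, the 2 measured genes with the smallest p are named, except for 1 result that is not reported here. Cldn1, Cldn10, Gjb2 and the gland markers were named after their values were seen.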

Additional observations from a re-analysis of the deposited data

How the results depend on the processing

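The absence of junction and polarity genes past the adjusted threshold held in all 14 alternatives (8 of processing and 6 that leave out 1 array), with limma; the smallest adjusted p of any of these genes was 0.408, with array weights for Dsg2. Over all genes, the number higher in CKO was 2. It was 1 with normexp and an offset of 50, with no background correction, with median scaling and with the deposited values, 0 with no filter and with the strict filter, 5 with array weights, and 0 to 1 with an array left out; the number lower was 0 throughout. The number of the 31 genes with separate groups was 4, stayed at 3 to 4 under the processing alternatives and rose to between 5 and 9 with an array left out (7 without B, 9 without D, 7 without E and 7 without F), where fewer arrays make separation easier. Their median difference moved between -0.052 and 0.064, and that of Bmpr1a between -0.73 and -0.43.

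The sign of the difference held in all 14 alternatives for 10 genes: Cldn12 (0.22 to 0.60), Cldn23 (0.19 to 0.43), F11r (-0.45 to -0.16), Ctnna1 (0.021 to 0.30), Ctnnb1 (0.072 to 0.19), Ctnnd1 (0.0085 to 0.26), Dsp (-0.42 to -0.21), Dsg2 (-0.27 to -0.015), Crb3 (-0.45 to -0.0053) and Inadl (0.17 to 0.32). For Crb3, Ctnna1, Ctnnd1 and Dsg2 the smallest of these lay at about 0. Of the 12 members with more than 1 kept probe, 10 had probes on both sides of 0, among them Ctnnb1, Dsg2 and Inadl. The sign changed under a processing alternative for 13 genes and only with an array left out for 8. The cause was not tested. With array weights the difference became 0.075 for Tjp1, -0.063 for Cldn4, -0.33 for Cldn10 and 0.13 for Cdh1. In that setting it was -0.24 for Pard3, -0.058 for Scrib and -0.052 for Llgl2. With the mean of the probes it became -0.025 for Tjp3, 0.0096 for Cgn, -0.20 for Marveld3, 0.22 for Cdh1, 0.083 for Pvrl2 and 0.049 for Prkcz. Median scaling gave -0.018 for Tjp3 and -0.014 for Pkp2, and the deposited values gave -0.011 for Pard3. With single arrays left out, the differences ran from -0.18 to 0.12 for Tjp3, -0.087 to 0.25 for Ocln, -1.12 to 0.46 for Cldn1, -0.011 to 0.15 for Cldn3, -0.018 to 0.29 for Cldn4, -0.29 to 0.013 for Cldn7, -0.63 to 1.18 for Cldn10 and -0.55 to 0.013 for Cgn. They ran from -0.16 to 0.16 for Cdh1, -0.15 to 0.023 for Pvrl2, -0.35 to 0.12 for Pvrl4, -0.056 to 0.061 for Pkp2, -0.18 to 0.037 for Pkp3, -0.12 to 0.15 for Pard3, -0.093 to 0.28 for Pard6b, -0.19 to 0.13 for Prkcz, -0.42 to 0.015 for Mpp5 and -0.025 to 0.13 for Llgl2. Inadl lost its separation with median scaling and with the mean of the probes, and Dsg2 with the mean of the probes. With the mean of the probes Pkp2 gained separation, at a difference of 0.27. No paired analysis was possible because the groups share no replicate letters.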
